A study of Mus musculus with 6 samples.

Results

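In primary mouse macrophages, 547 genomic sites carried called peaks of both p300 and PU.1 after lipopolysaccharide (LPS) and of neither before it. They were chosen from the authors' peak lists: the p300 peaks of LPS-treated and untreated cells on chromosomes 1 to 19 and X were merged into 19879 sites. A site was kept if it overlapped the LPS p300 list alone, a PU.1 peak of LPS-treated cells and no PU.1 peak of untreated cells, by at least 1 bp. They made up 2.75% of all merged p300 sites and 7.23% of the 7568 sites found in the LPS p300 list alone. The other sites of the LPS list alone were 2304 with an untreated PU.1 peak, called pre-bound here, and 4717 with no PU.1 peak in either state.

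The cells were macrophages grown from bone marrow of female Fvb mice and used on day 7 of differentiation, in medium conditioned by L929 cells, a fibroblast line that secretes the macrophage growth factor M-CSF. LPS-treated cells received 10 ng/ml for 2 h and untreated cells none, and both were fixed for 10 min in 1% formaldehyde. Chromatin immunoprecipitation with sequencing gave 2 p300 libraries and 1 PU.1 library in each state, and 1 library each of histone H3 mono-methylated at lysine 4 (H3K4me1) and of input chromatin, both from untreated cells alone. The p300 replicates are biological ones per the series' design text, which does not say whether animals were pooled, and no RNA was measured, so macrophage identity could not be checked from marker genes.

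p300 is a histone acetyltransferase that transcription factors bring to active enhancers and promoters. PU.1 is an ETS-family factor needed for the macrophage lineage, and it binds widely in macrophages, where it helps to set up enhancers that carry H3K4me1. LPS, an outer-membrane glycolipid of Gram-negative bacteria, signals through Toll-like receptor 4 and activates other transcription factors, such as NF-κB and the interferon regulatory factors, within minutes to hours.

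The libraries held 5744811 to 7828655 reads. Reads were counted with 1 kept per position and strand, which left 74.1% to 96.8% of them. The p300 libraries of replicate 1 were weakly enriched. All merged p300 sites held 2.20 and 4.99 times the input's share of reads in LPS replicates 1 and 2. In untreated replicates 1 and 2 they held 1.46 and 5.53 times. The 547 sites, chosen to lack an untreated p300 peak, held 2.98 and 7.48 times in LPS replicates 1 and 2. In untreated replicates 1 and 2 these sites held 1.04 and 2.22 times. Reads of untreated replicate 1 at these sites were thus close to the input level. Input was not measured after LPS, so the background of LPS-treated chromatin is unknown. The header lines of both PU.1 peak lists name LPS, so the lists were checked on the reads. At the 15146 peaks that occur in the LPS list and not in the untreated one, 209142 LPS and 99960 untreated reads were found. At the 14147 peaks of the opposite kind there were 112983 LPS and 205573 untreated reads, so the sample labels were followed.

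The p300 values below chose these sites and are given as a description. The 547 sites covered 351640 bp, with a median width of 590 bp, against 486 bp over all merged p300 sites. Summed over them, p300 had 4936 and 13050 reads in LPS replicates 1 and 2, and 2016 and 3950 reads in untreated replicates 1 and 2. Scaled to distinct reads, the LPS to untreated ratio was 2.86 for replicate 1 and 3.37 for replicate 2. At pre-bound sites these ratios were 2.66 and 2.24, and at sites without a PU.1 peak 2.70 and 3.19. Over all merged p300 sites they were 1.51 and 0.902, and at sites of both lists 1.68 and 0.834. Under this scaling the replicates thus had different baselines, and that of replicate 1 lay above 1. Across the LPS-only classes the ratios were similar in replicate 1 and differed more in replicate 2, in values that the choice of peaks had used.

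Per site, the median was 11.2 and 12.0 normalised p300 reads in LPS replicates 1 and 2, and 5.41 and 3.31 in untreated replicates 1 and 2 (reads divided by each library's size factor). The median log2 fold change, LPS over untreated, was 1.60 (quartiles 1.02 and 2.23), and it was above 0 at 545 and above 1 at 413 of the 546 sites tested. At 10 of the 547 sites no untreated p300 read was found, and with these set to a bound of 3 reads the median was also 1.60. Both LPS libraries lay above both untreated ones at 406 sites (74.2%), where 27.0% of all p300 sites had this order. limma voom called p300 higher at 75 sites (13.7%) at an adjusted p of 0.05, against a background of 1.97% over 19727 tested sites. It called 0 of them lower at an adjusted p of 0.05, against a background of 0.213%. Their lowest log2 fold change was -0.01, and at an unadjusted p under 0.05 the count was also 0. The rule used this contrast, so these shares are no result about the sites. The call also depended on scaling and libraries: it was made at no site when library size was total reads, although the median log2 fold change was 1.54 and 543 of 546 sites were above 0. Without untreated replicate 2 it was made at 3 sites, with a median of 0.87 and 468 of 546 above 0.

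**Figure D1:**
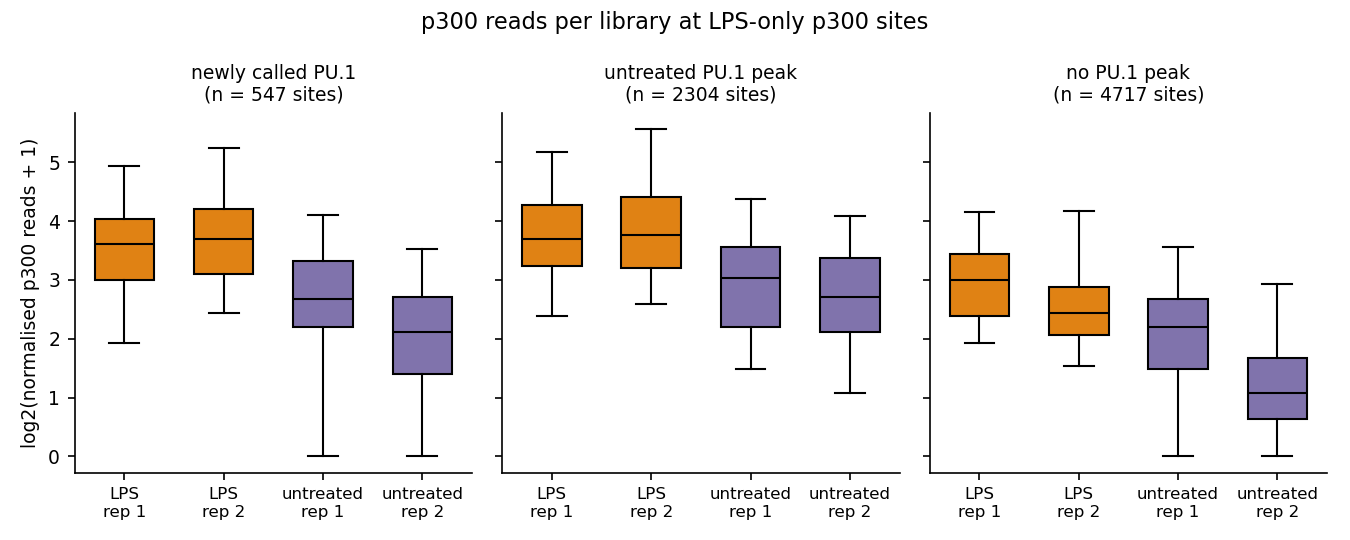
p300 reads per site in each library, as log2(normalised reads + 1), at the LPS-only p300 sites with newly called PU.1, with an untreated PU.1 peak and without a PU.1 peak. Boxes show quartiles and medians and whiskers the central 90% of sites. At newly called sites the medians were 11.2 and 12.0 normalised reads in LPS libraries and 5.41 and 3.31 in untreated ones.

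Libraries of the same replicate number, which the labels do not call paired, did not show the same size of rise. LPS was higher than untreated at 457 sites (83.5%) for replicate 1, with a median log2 ratio of 0.80. For replicate 2 it was higher at 538 sites (98.4%), with a median of 1.62. These ratios had 1 normalised read added to each side, which shrinks them at low counts.

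The strongest sites stood far above this middle range. The highest authors' p300 score among the 547 sites, 3100, was at chr11:83343553-83344656 (mm9). It had 95 and 277 p300 reads in LPS replicates 1 and 2, against 6 and 8 in untreated replicates 1 and 2. That is 133 and 175 normalised reads after LPS, against 10.8 and 4.41 before, and the groups did not overlap. The fold change on the log2 scale was 4.75 ± 0.66 (SE), with an adjusted p of 9.42e-09 by limma voom. The site was chosen on its p300 peaks, so this p is a description and no test. By limma voom with total reads as library size, the adjusted p was 0.583. PU.1 had 116 reads after LPS and 13 before, a ratio of 8.57 (exact 95% interval 4.82 to 16.6). This site had no H3K4me1 peak, and within 1 kb of its centre lay 5 H3K4me1 reads and 7 input reads.

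It was 1 of 3 such sites within a short stretch, chr11:83338727-83344656. At chr11:83340042-83341330, p300 had 25 and 86 reads in LPS replicates 1 and 2 and 8 and 5 in untreated replicates 1 and 2, and PU.1 had 49 reads after LPS and 2 before (ratio 23.5, exact 95% interval 6.18 to 199.8). At chr11:83338727-83340012, p300 had 15 and 32 reads in LPS replicates and 5 and 3 in untreated ones, and PU.1 had 43 reads after LPS and 3 before (ratio 13.8, 4.41 to 69.4). These neighbours lay 30 bp apart and overlapped the same PU.1 peak, so their PU.1 signal is not independent. Both lacked an H3K4me1 peak, with 1 and 0 H3K4me1 reads within 1 kb of the centre, against 3 and 7 input reads. All 3 sites thus had more p300 and PU.1 reads after LPS where little H3K4me1 was found before LPS.

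The largest p300 log2 fold change, 5.11 ± 0.77 (SE; limma voom, adjusted p = 4.22e-07), was at chr9:14612383-14613713. The rule and the ranking used this contrast, so this p is likewise a description. The rank depended on the fit. By limma-trend, an alternative fit, the value was 3.72, below the 4.14 at chr11:83343553-83344656, and without untreated replicate 2 it was 2.83. Here p300 had 46 and 123 reads in LPS replicates 1 and 2, against 5 and 2 in untreated replicates 1 and 2. PU.1 had 54 reads after LPS and 6 before (ratio 8.65, 3.73 to 24.6). No H3K4me1 peak overlapped it, but one began 354 bp away, and the nearest untreated PU.1 peak lay 351 bp away. The site therefore stood beside chromatin that was already marked and bound.

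Among the 10 named sites with the largest rise, log2 fold changes ran from 3.84 to 5.11, and 7 had 3 or fewer untreated p300 reads in all. For these the fitted fold depends on small counts, and the ratio of summed reads was read with its interval. Reads of both replicates were summed and scaled by summed size factors, so the interval covers counting error and leaves out replicate spread. At chr19:32593717-32595201 there were 90 LPS and 2 untreated reads, a ratio of 46.4 (exact 95% interval 12.5 to 389). At chr10:53004740-53005554 there were 89 and 2, a ratio of 45.9 (12.3 to 385). The smallest of the 7 was at chr2:79008033-79008719, with 54 LPS and 3 untreated reads and a ratio of 18.6 (6.03 to 92.9). PU.1 intervals lay above 1 at 9 of the 10 sites, the exception being the chr10 site with 18 LPS and 8 untreated PU.1 reads (ratio 2.16, 0.89 to 5.75). Of the 10 sites, 8 had no H3K4me1 peak. No call was left at any of the 10 when libraries were scaled by total reads or by background bins, where log2 fold changes were 3.34 to 5.28 and 3.39 to 5.33. Log2 fold changes of the 10 sites were 2.58 to 4.14 by limma-trend and 1.59 to 5.36 without untreated replicate 2. The call was lost at 7, 7 and 8 of them without LPS replicate 1, LPS replicate 2 and untreated replicate 2.

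PU.1, whose peak calls also chose the sites, had 13736 reads over the 547 sites after LPS and 4804 before. The ratio scaled to distinct reads was 2.75 (exact 95% interval 2.66 to 2.84). Input had 1820 reads there, so untreated PU.1 already stood 2.74 times above input (2.60 to 2.90), and LPS PU.1 7.53 times. In sum, PU.1 reads above input were thus present at these sites before LPS. At pre-bound sites untreated PU.1 stood 11.3 times above input, and at sites without a PU.1 peak 1.98 times. The LPS to untreated ratio was 1.21 at pre-bound sites, 1.58 at sites without a PU.1 peak and 1.00 at sites of both p300 lists. These are comparisons of single libraries, and their intervals cover counting error only.

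Per site, PU.1 had a median of 20 reads after LPS (1 to 141) and 6 before (0 to 83). The log2 ratio had a median of 1.53 (quartiles 0.91 and 2.38) and was above 0 at 530 of the 547 sites. Its interval lay above 1 at 332 sites (60.7%; 8.27% of all p300 sites) and above 2 at 111 (20.3%; 1.16% of all p300 sites). At pre-bound sites these shares were 25.5% and 2.65%, and at sites without a PU.1 peak 5.22% and 0.975%. The rule used the PU.1 calls, so these shares are no result about the sites. At none of the 547 sites did the interval lie below 1, but at 74 sites fewer than 10 LPS reads limited what could be seen. No untreated PU.1 read was found at 31 sites, and with these at a bound of 3 reads the median log2 ratio was also 1.53. Conversely, 162 sites had 10 or more untreated PU.1 reads without a peak call. The untreated PU.1 to input ratio had an interval above 1 at 133 sites (24.3%, exact 95% interval 20.8 to 28.1), against 52.9% of all p300 sites, 92.4% of pre-bound sites and 4.73% of sites without a PU.1 peak. Among those without a PU.1 peak but with an H3K4me1 peak it was 25.6%, close to the newly called sites.

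**Figure D2:**
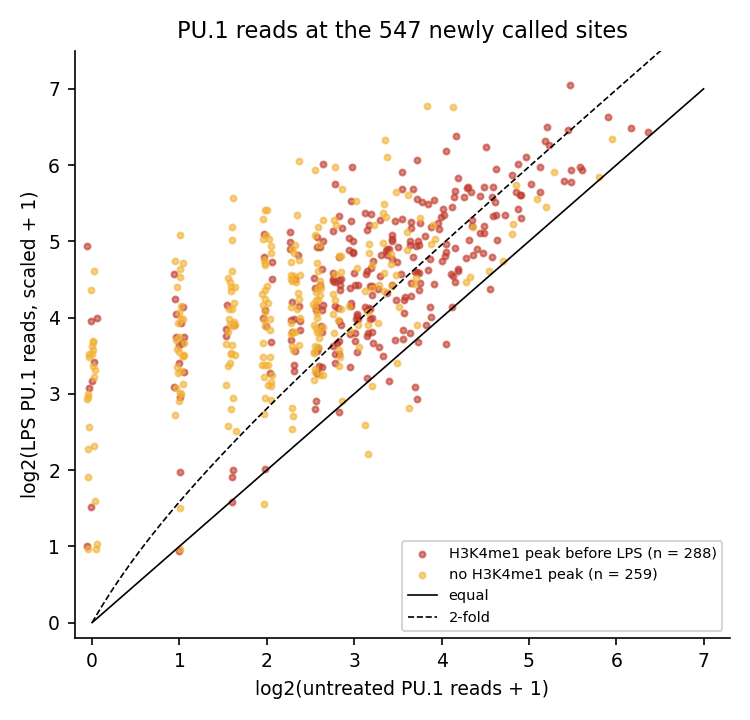
PU.1 reads at each of the 547 sites, LPS (vertical, scaled to the untreated depth) against untreated (horizontal), both as log2(reads + 1) with slight jitter. Colours mark sites with and without an H3K4me1 peak before LPS, and lines mark equality and a 2-fold rise. Most sites lie above equality, and 31 stand at 0 untreated reads.

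Named sites showed both ends of this range. At chr7:81672554-81673183 PU.1 had 31 reads after LPS and 0 before, and the exact 95% lower limit of the ratio was 7.60. At chr2:157233204-157233768 it had 25 and 0 reads (lower limit 6.04), and at chr13:73551864-73552242 it had 20 and 0 (lower limit 4.74). PU.1 and p300 did not always match in size: at chr17:48055930-48056290 PU.1 had 34 LPS reads and 1 untreated read (ratio 32.7, 5.48 to 1328). There p300 had 4 and 9 reads in LPS replicates and 4 and 4 in untreated ones, so its groups overlapped after scaling (5.62 and 5.69 normalised reads against 7.21 and 2.21).

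At the other end, some sites gained a peak call without more PU.1 reads counted within the p300 site. At chr2:28477996-28478589 PU.1 had 8 reads after LPS and 12 before (ratio 0.641, 0.227 to 1.70), and the nearest untreated PU.1 peak lay 19 bp outside the site. Its LPS PU.1 peak scored 344.73 but was centred 689 bp from the centre of this 593 bp site. Reads at the centre of that peak were thus not counted. At chr13:98414627-98415070 it had 12 and 16 reads (ratio 0.721, 0.311 to 1.62), with an untreated PU.1 peak 7 bp away. The other 3 of the 5 sites with the lowest ratios had ratios of 0.877, 0.961 and 0.961, and their nearest untreated PU.1 peaks lay 2385, 50393 and 7789 bp away. The last of them, at chrX:17149017-17149651 (634 bp), also had its LPS PU.1 peak centred outside the site, 442 bp from the site centre. All 5 had intervals that included 1.

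The rule's threshold was the authors' score, and the lowest score in the PU.1 lists was close to 50. Just inside it, with LPS PU.1 scores of 50.02, 50.04 and 50.09, the sites chr2:78959673-78960263, chr13:30733879-30734407 and chr10:119860845-119861677 had 11, 14 and 15 PU.1 reads after LPS and 0, 8 and 2 before. Just outside it, with untreated PU.1 scores of 50.01, 50.21 and 50.26, the sites chr13:52695383-52696195, chr5:34278787-34279337 and chr4:9558149-9559252 had 62, 25 and 74 reads after LPS and 44, 42 and 40 before. The chr5 site had no LPS PU.1 peak, so it would fail the rule whatever its untreated score. The median score of the LPS PU.1 peak was 84.2 at the newly called sites and 228 at pre-bound sites with an LPS peak, so many newly called peaks were near the threshold.

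The rule asked for overlap with an LPS PU.1 peak, which limits how far apart the p300 and PU.1 centres can lie. The site centre lay a median of 75 bp from the centre of its LPS PU.1 peak, and within 100 bp at 341 sites (62.3%, exact 95% interval 58.1 to 66.4), against 57.7% of the 2152 pre-bound sites that had an LPS PU.1 peak. Among all p300 sites with an LPS PU.1 peak the share was 59.9%, and among those of the untreated p300 list alone 62.0%. It was thus not particular to the newly called sites. In the mean profile the centre, within 100 bp, held 0.492 RPM (distinct reads scaled to library depth) of PU.1 per site and 50 bp bin after LPS, against 0.165 before, and 0.0978 and 0.0575 at 250 to 750 bp from the centre. A low untreated PU.1 peak thus stood at the same place. For p300 the centre held 0.177 and 0.469 in LPS replicates 1 and 2, against 0.0489 and 0.127 in untreated replicates 1 and 2, with 0.0414 in input.

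**Figure D3:**
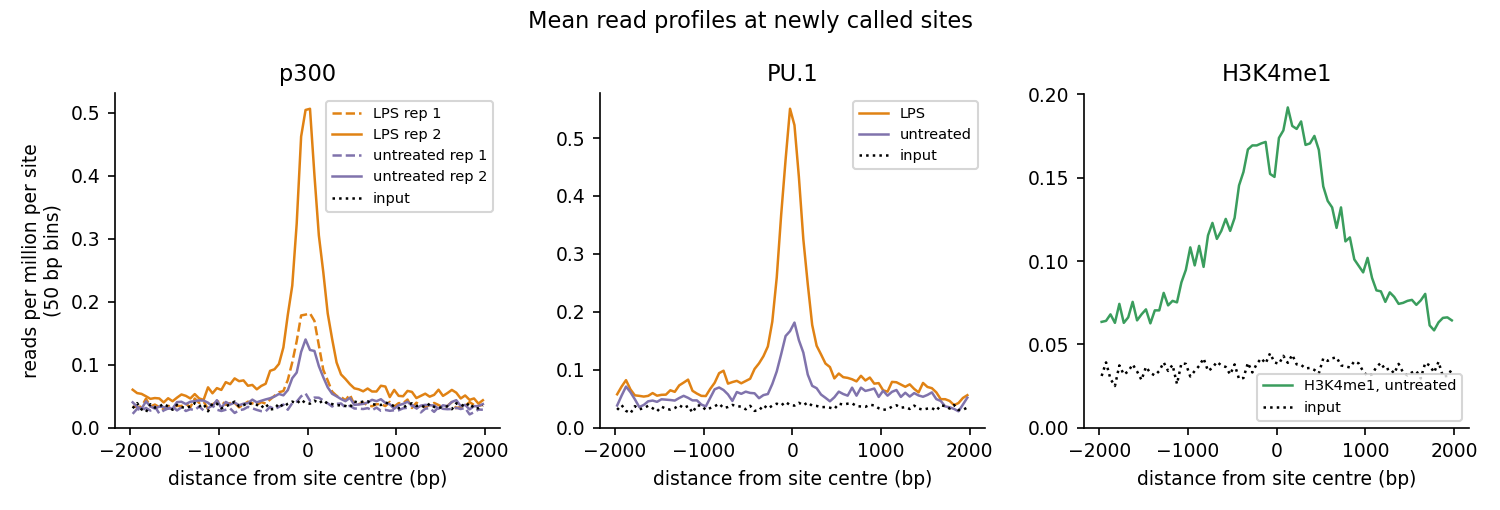
Mean RPM per site in 50 bp bins, from the site centre to 2 kb on each side, at the 547 sites, for p300, PU.1 and H3K4me1 with input in each panel. PU.1 at the centre stood at 0.492 after LPS and 0.165 before, and at the centre both p300 LPS libraries lay above both untreated ones.

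H3K4me1 in untreated cells was not used to choose the sites. An H3K4me1 peak overlapped 288 of the 547 sites (52.7%, exact 95% interval 48.4 to 56.9), close to the 48.0% of all p300 sites. The share was 69.3% at pre-bound sites, 13.1% at sites without a PU.1 peak and 80.6% at sites of both p300 lists. H3K4me1 over input, counted within 1 kb of the centre, had a median log2 ratio of 1.50 (quartiles 0.58 and 2.30), against 1.99 at pre-bound sites, -0.59 at sites without a PU.1 peak and 2.34 at sites of both lists. The newly called sites thus lay between the pre-bound sites and those without PU.1. Site width was not matched between classes: its median was 590 bp here, against 613 bp at pre-bound sites and 379 bp at sites without a PU.1 peak, and its part in these shares was not tested.

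Levels varied widely among the sites. At chr7:50735637-50735968 there were 73 H3K4me1 and 3 input reads within 1 kb of the centre, a log2 ratio of 4.20, and at chr5:137578837-137579693 there were 130 and 7, a log2 ratio of 4.02. At the low end chr12:120346094-120346419 had 0 H3K4me1 and 9 input reads, and chr10:52996039-52996786 had 0 and 7. The p300 response of the high pair was small, with log2 fold changes of 1.38 and 0.79, and that of the low pair was 3.07 and 3.79. The low pair had 1 and 2 untreated p300 reads in all, so their folds rest on few counts, with ratios of 14.4 (exact 95% interval 2.20 to 611) and 19.6 (5.07 to 168).

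As background, enhancers occupied by a factor are known to show a dip in histone marks over the bound site, where nucleosomes are displaced. Sites of both p300 lists had such a dip: their H3K4me1 to input ratio within 100 bp of the centre was 0.559 of that at 200 to 500 bp. At pre-bound sites it was 0.718, and at sites without a PU.1 peak 1.24. At the newly called sites it was 0.846, between these. With the flank taken at 250 to 750 bp, it was 1.00 at newly called sites, against 0.754 at pre-bound sites, 0.535 at sites of both lists and 1.39 at sites without a PU.1 peak. The order of the classes was the same with both flanks. At newly called sites H3K4me1 reads alone, not divided by input, gave 0.995 (95% interval 0.947 to 1.04) and 1.13 (1.08 to 1.19) with these flanks. Input alone gave 1.18 (1.06 to 1.30) and 1.13 (1.03 to 1.24). With the nearer flank, H3K4me1 reads alone gave 0.826 at pre-bound sites and 0.623 at sites of both lists. A dip at newly called sites was thus found only with the nearer flank and after division by input.

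**Figure D4:**
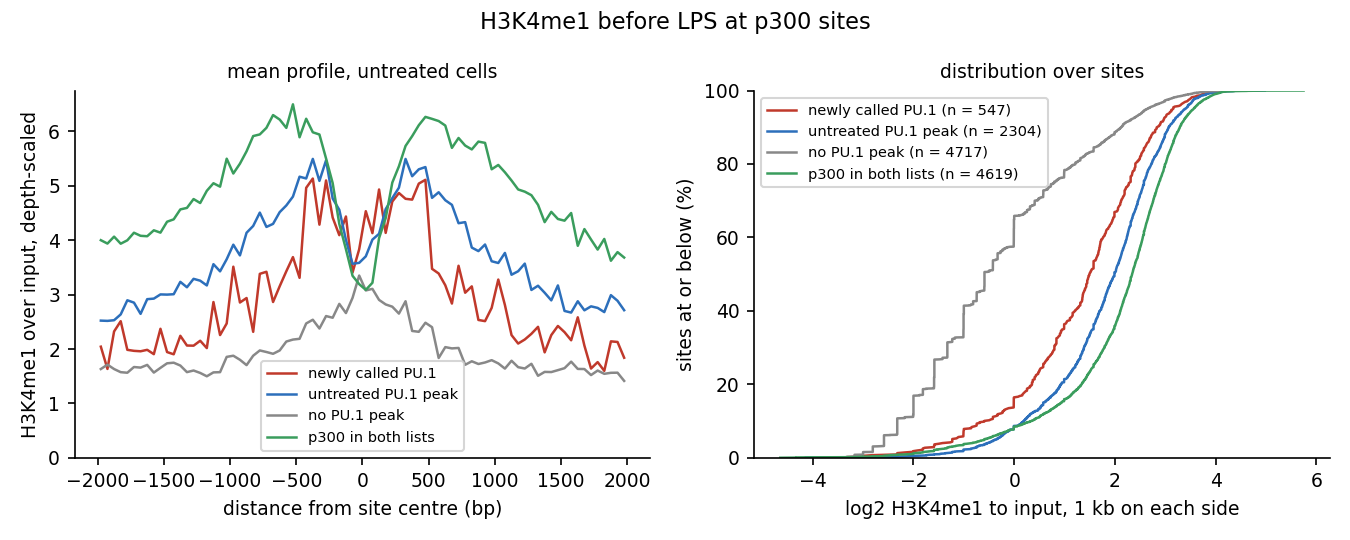
H3K4me1 of untreated cells at newly called sites and 3 other classes of p300 site. The left panel shows the mean profile as the depth-scaled ratio to input against distance from the site centre, and the right panel the cumulative share of sites by log2 ratio to input within 1 kb. The median log2 ratios were 1.50 at newly called sites, 1.99 at pre-bound sites, -0.59 without a PU.1 peak and 2.34 in both lists.

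The sites were then split by the H3K4me1 peak, a split made with values of these data known. The 259 sites without one had a median p300 log2 fold change of 1.97 and the 288 with one 1.30. PU.1 differed the same way, with a median log2 ratio of 2.02 without and 1.30 with an H3K4me1 peak, and a pooled ratio of 3.61 and 2.37. Untreated levels were lower at unmarked sites, with a median of 3.46 normalised p300 reads (mean of both untreated libraries) and 4 PU.1 reads, against 5.26 and 8 at marked sites. Levels after LPS were closer in ratio, at 10.5 and 11.9 normalised p300 reads and 17 and 23 PU.1 reads, but the PU.1 difference in reads was not smaller. In ratio, unmarked and marked sites thus differed more before LPS than after it. The choice of peaks had constrained the levels in both states.

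The gap in p300 log2 fold change between unmarked and marked sites rested largely on 1 library. Without untreated replicate 2 the medians were 0.94 at unmarked and 0.80 at marked sites, and within the replicate 1 pair they were 0.89 and 0.72, while within the replicate 2 pair they were 1.92 and 1.34. A gap in the same direction was found at LPS-only sites without a PU.1 peak, with medians of 1.60 without and 1.26 with an H3K4me1 peak. At pre-bound sites the medians were 1.00 without and 1.04 with one. No test across sites was made, since sites are not replicates.

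No untreated PU.1 peak overlapped the newly called sites, by the rule. The nearest one was a median of 4192 bp away, and it lay within 1 kb of 114 sites (20.8%) and within 10 kb of 400 (73.1%, exact 95% interval 69.2 to 76.8). Over all p300 sites, which include those that overlap such a peak, the share within 10 kb was 76.4%, and at LPS-only sites without a PU.1 peak it was 50.5%. Among newly called sites the share was 82.6% with and 62.5% without an H3K4me1 peak. At LPS-only sites without a PU.1 peak it was 93.4% with and 44.0% without an H3K4me1 peak. The share was thus higher at marked sites in both classes. The untreated p300 list was also shorter, with 12421 peaks against 73500 in the untreated PU.1 list, so the shares for the 2 lists are not comparable. An untreated p300 peak lay within 10 kb of 116 sites (21.2%), against 24.3% of pre-bound sites and 15.6% of sites without a PU.1 peak. Another p300 site of the LPS list lay within 10 kb of 39.3% of the newly called sites, against 36.4% of pre-bound sites and 22.2% of sites without a PU.1 peak.

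**Figure D5:**
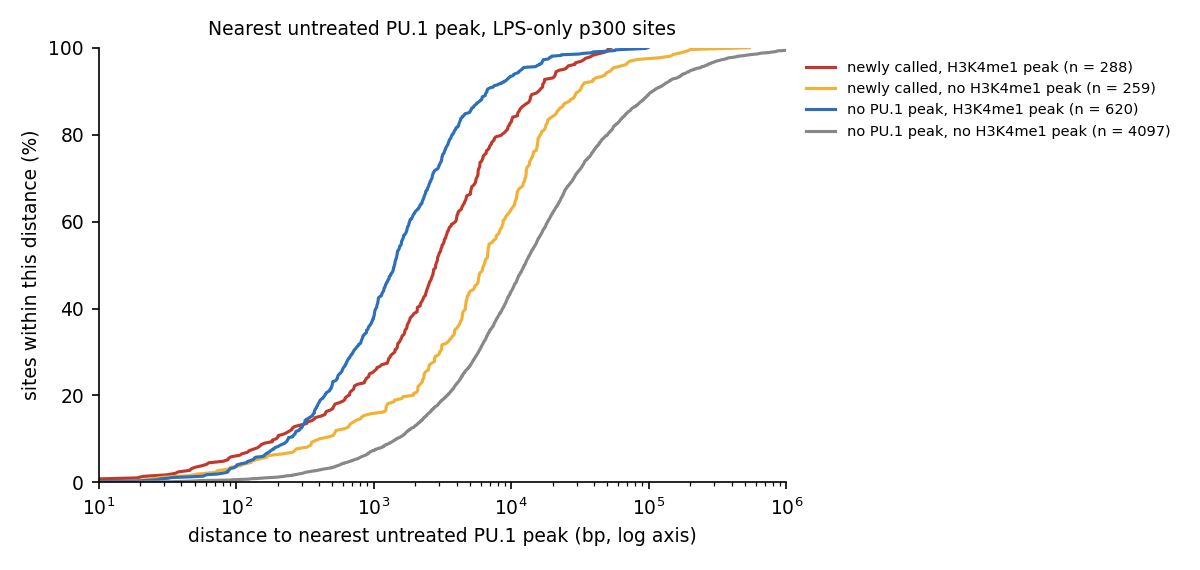
Cumulative share of LPS-only p300 sites by distance to the nearest untreated PU.1 peak (log axis), for newly called sites and sites without a PU.1 peak, each with and without an H3K4me1 peak. Within 10 kb the shares were 82.6% and 62.5% at newly called sites with and without the mark, and 93.4% and 44.0% at sites without a PU.1 peak.

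The sites were mostly scattered, with 483 of them more than 50 kb from any other. The remaining 64 formed 26 pairs and 4 runs of 3 sites. The runs were chr11:45740166-45821022, chr11:83338727-83344656, chr13:5788612-5828107 and chr3:143824167-143869356. Chromosome 2 held the most sites, 61 (11.2%), against 8.50% of all LPS-only p300 sites and 8.45% of all p300 sites.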

How the data were processed

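Mouse macrophage chromatin was immunoprecipitated for p300, PU.1 or H3K4me1 and sequenced with input. The authors deposited aligned reads as positions and strands of 36 bp and peak lists on mm9, per the submitters' processing notes. The score of each peak is the -log10 p-value that MACS gave the authors, multiplied by 10, per the deposited column description, and its lowest value was close to 50. The p300 lists were called on merged replicates, per the series' design text. The aligner and caller versions are not given in the sources used here.

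Reads were counted here per merged p300 site, with 1 read kept per position and strand and 5′ ends moved 100 bp downstream. Sites with at least 10 p300 reads over 4 libraries were compared by limma voom (limma 3.58.1, R 4.3.3) fitting treatment alone, with median-of-ratios size factors and Benjamini-Hochberg adjustment over 19727 sites. Size factors were 0.712 and 1.58 for LPS replicates 1 and 2 and 0.555 and 1.81 for untreated replicates 1 and 2. The fit gave sites a common residual variance, so its SE and p do not measure a site's own replicate spread. PU.1, H3K4me1 and input have 1 library per state, so ratios carry exact 95% intervals conditional on the sum, and shares exact (Clopper-Pearson) intervals. The ratio intervals cover counting error only. The share intervals treat sites as independent draws and hold no error of read counts. Of the newly called sites, 64 lay in runs within 50 kb and 8 shared an LPS PU.1 peak with another. Ratios were scaled by distinct reads, except p300 ratios at single sites. Those summed the reads of both replicates, were scaled by summed size factors and carry the same kind of interval, which leaves out replicate spread. 0.5 reads were added before PU.1 log2 ratios and 1 read before H3K4me1 log2 ratios. Per-site p300 log2 ratios within a replicate number had 1 normalised read added.

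The sites named were the 10 largest p300 rises among sites with at least 40 reads and non-overlapping groups, the 5 highest and 5 lowest PU.1 ratios with at least 20 reads, the 5 highest and 5 lowest H3K4me1 ratios, the 5 highest p300 scores, and the 3 nearest sites on each side of the score threshold. The text prints some of them. The members, lists and tests were chosen with earlier results of these data known. Motifs, sequences and nearest genes were not analysed here, because no mm9 genome or annotation was used. The counting and the fit were tested on simulated data. Python 3.11.15 with numpy 2.4.6, pandas 2.3.3 and scipy 1.17.1 was used.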

Additional observations from a re-analysis of the deposited data

How the results depend on the processing

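Calls of p300 depended on scaling and on single libraries. The 10 named rises were above 0 under every setting run, which their choice as the largest rises makes likely in advance, while over the 546 tested sites the number above 0 was 545, and 468 without untreated replicate 2. limma voom called 388 sites higher and 42 lower, 75 of them newly called PU.1 sites. With total reads as library size it called 0 higher, 0 lower and 0 newly called sites (smallest adjusted p 0.583, 1494 sites at an unadjusted p under 0.05), and with background bins of 10 kb also 0, 0 and 0 (0.618, 1456 sites). With all reads kept 76 sites were lower. Leaving out each library in turn gave 13 to 485 higher, 0 to 282 lower and 3 to 79 newly called sites, with a median log2 fold change of their p300 of 0.87 to 1.79. The lowest counts of newly called sites were 3 (untreated replicate 2 left out), 7 (LPS replicate 1) and 14 (LPS replicate 2). With a replicate block the calls were 896 higher, 395 lower and 132 newly called sites. The log2 deviation of replicate 1 from the mean of its state correlated between LPS and untreated at r = 0.144. This was taken over 8641 sites with at least 40 p300 reads, and the labels do not say that a number pairs libraries. Total reads and background bins moved the median of all sites by 0.20 and 0.17 on the log2 scale.

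PU.1 intervals lay above 1 at 66.7% of newly called sites with all reads kept. Scaling by PU.1 sites gave a pooled ratio of 2.94, and 5 added reads a median log2 ratio of 1.09. Limiting both LPS peaks to scores of at least 100 (88 sites) gave a median of 2.06, a pooled ratio of 4.20, 90.9% of intervals above 1, 43.2% with an H3K4me1 peak and 14.8% with an untreated p300 peak within 10 kb. Without an untreated PU.1 peak within 1 kb (433 sites) the pooled ratio was 3.10. The median log2 H3K4me1 ratio was 1.80 over 500 bp and 1.16 over 2 kb on each side. The share with an H3K4me1 peak was 59.2% within 1 kb and 36.4% for peaks scoring at least 100. The cause of these shifts was not tested. The planned motif and nearest-gene alternatives were not run. Limits are the single PU.1 and H3K4me1 libraries, input from untreated cells alone, and the weak enrichment of p300 replicate 1.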
